A study of Homo sapiens with 9 samples.

Results

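The tumour necrosis factor (TNF) superfamily was followed across 3 groups of human IMR90 ER:RAS fibroblasts profiled on gene arrays. Members were taken by symbol alone from the probe sets that carry exactly 1 gene symbol: any symbol that begins with TNFSF or TNFRSF and a digit, and TNF, LTA, LTB, LTBR, FAS, FASLG, CD27, CD70, CD40, CD40LG, EDA, EDAR, EDA2R and NGFR. This gave 41 genes of the 18417 measured, made up of 15 ligands and 26 receptors. Among the receptors, 8 have a death domain, 2 are decoys and 16 are of other kinds. TNFSF12, TNFSF13, TNFRSF10C and TNFRSF6B lie on probe sets with several symbols and were not analysed here, nor was CD40LG.

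The series holds 9 arrays, 3 in each group. IMR90 is a diploid lung fibroblast line (spelled IRM90 in the labels), and ER:RAS is a fusion of oncogenic RAS with an oestrogen receptor domain that 4-hydroxytamoxifen (4OHT) activates. The groups were cells carrying an ARID1B short hairpin and given 4OHT (shARID1B+4OHT), cells carrying an empty vector and given 4OHT (vector+4OHT, the senescent cells) and cells carrying an empty vector without 4OHT (vector-4OHT, the non-senescent cells). All carried ER:RAS, were labelled as 6 days after 4OHT (also those without it) and were grown for 7 days. The dose was 100 nM. No group held a control hairpin, the hairpin without 4OHT, or 4OHT without ER:RAS, and the labels do not say how many hairpins were used. The replicates are biological by the article's legend, and the labels give no word on separate cultures. What the p-values measure is the spread between these arrays.

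TNF superfamily ligands are mostly membrane proteins that assemble as trimers, and many are released when a protease cuts them. Receptors with a death domain can recruit FADD or TRADD and so reach caspase-8 or NF-kappaB, most others bind TRAF adaptors, and decoys hold ligand without passing on a full signal. In fibroblasts the family is known for its part in inflammatory gene expression and in sensitivity to cell death, and senescent cells are known for a secretome rich in NF-kappaB target products.

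Senescence was the comparison of vector+4OHT with vector-4OHT cells, and knockdown that of shARID1B+4OHT with vector+4OHT cells. The third comparison set shARID1B+4OHT against vector-4OHT cells. All 3 share arrays, so they are not independent of each other. Levels are log2 expression values and changes are log2 fold changes from limma, called at an adjusted p under 0.05 (Benjamini-Hochberg over all 18417 genes). A group mean below 6.75, the median of all values, was not shown to lie above background, and a fold change that involves one is uncertain. In bulk RNA, a smaller number of expressing cells and less RNA per cell cannot be told apart.

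The targeted gene was lower under the hairpin: ARID1B, a DNA-binding subunit of SWI/SNF chromatin remodellers, averaged 8.05 ± 0.088 in shARID1B+4OHT, 8.79 ± 0.16 in vector+4OHT and 8.91 ± 0.052 in vector-4OHT cells (SD, n = 3 each), and fell by 39.9% in knockdown (adjusted p = 0.000179). All 10 fibroblast markers were above 6.75 in every group. Their mean per array ranged over 11.25 to 11.30 in shARID1B+4OHT, 11.16 to 11.26 in vector+4OHT and 11.51 to 11.65 in vector-4OHT cells, and 8 of the 10 were lower in senescence. Of 7 epithelial markers, 2 were at or below 6.75 in shARID1B+4OHT cells and 3 in either vector group. The highest, KRT18, averaged 9.44 in shARID1B+4OHT, 9.65 in vector+4OHT and 9.60 in vector-4OHT cells. Of 8 endothelial markers, 6 were at or below 6.75 in each group. Among the epithelial markers 3 were lower in senescence and 2 higher in knockdown. Among the endothelial markers 1 was higher and 1 lower in senescence and in knockdown alike. Of the 10 fibroblast markers, 2 were higher and 2 lower in knockdown, and 6 were lower in the third comparison. The part of these shifts in the changes of the family was not tested. Of 9 leukocyte markers, 7 were at or below 6.75 in every group, including PTPRC, the defining leukocyte marker, at 3.94, 3.96 and 4.04 in shARID1B+4OHT, vector+4OHT and vector-4OHT cells. The leukocyte marker mean per array ranged over 6.26 to 6.28 in shARID1B+4OHT, 6.21 to 6.38 in vector+4OHT and 6.25 to 6.30 in vector-4OHT cells. Of the 9, only the lysosomal protein CD68 was called, higher in each comparison. NKG7, also a leukocyte marker, averaged 7.39 in shARID1B+4OHT, 7.50 in vector+4OHT and 7.49 in vector-4OHT cells. A mean above 6.75 therefore does not by itself show expression.

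In senescence, 9 of the 41 members rose and 2 fell. The risers were the ligands TNFSF15, TNFSF18 and TNFSF10, the TRAIL receptors TNFRSF10A, TNFRSF10B and TNFRSF10D, and TNFRSF21, TNFRSF12A and LTBR. TNFSF4 and TNFRSF19 fell. The 11 called members were 26.8% of the family, below the 32.6% of all genes called in that comparison. By direction, 14.9% of all genes were higher and 17.6% lower. The median change of the 41 members was 0.029, against -0.012 over all genes.

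In knockdown, 6 members rose (TNFSF10, TNFSF13B, TNFRSF9, TNFRSF11B, TNFRSF21 and LTBR) and 3 fell (TNFSF15, TNFSF18 and TNFRSF10D). These 9 were 22% of the family, against 15.7% of all genes, of which 9.63% were higher and 6.09% lower. The median member change was -0.025, against -0.017 over all genes. In the third comparison 12 members rose and 3 fell, 36.6% of the family against 31.5% of all genes, with 15.6% of all genes higher and 15.9% lower. The median member change there was -0.001, against -0.034 over all genes. In all, 16 members were called in at least 1 comparison (39%, against 42.7% of all genes) and 25 in none.

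**Figure D1:**
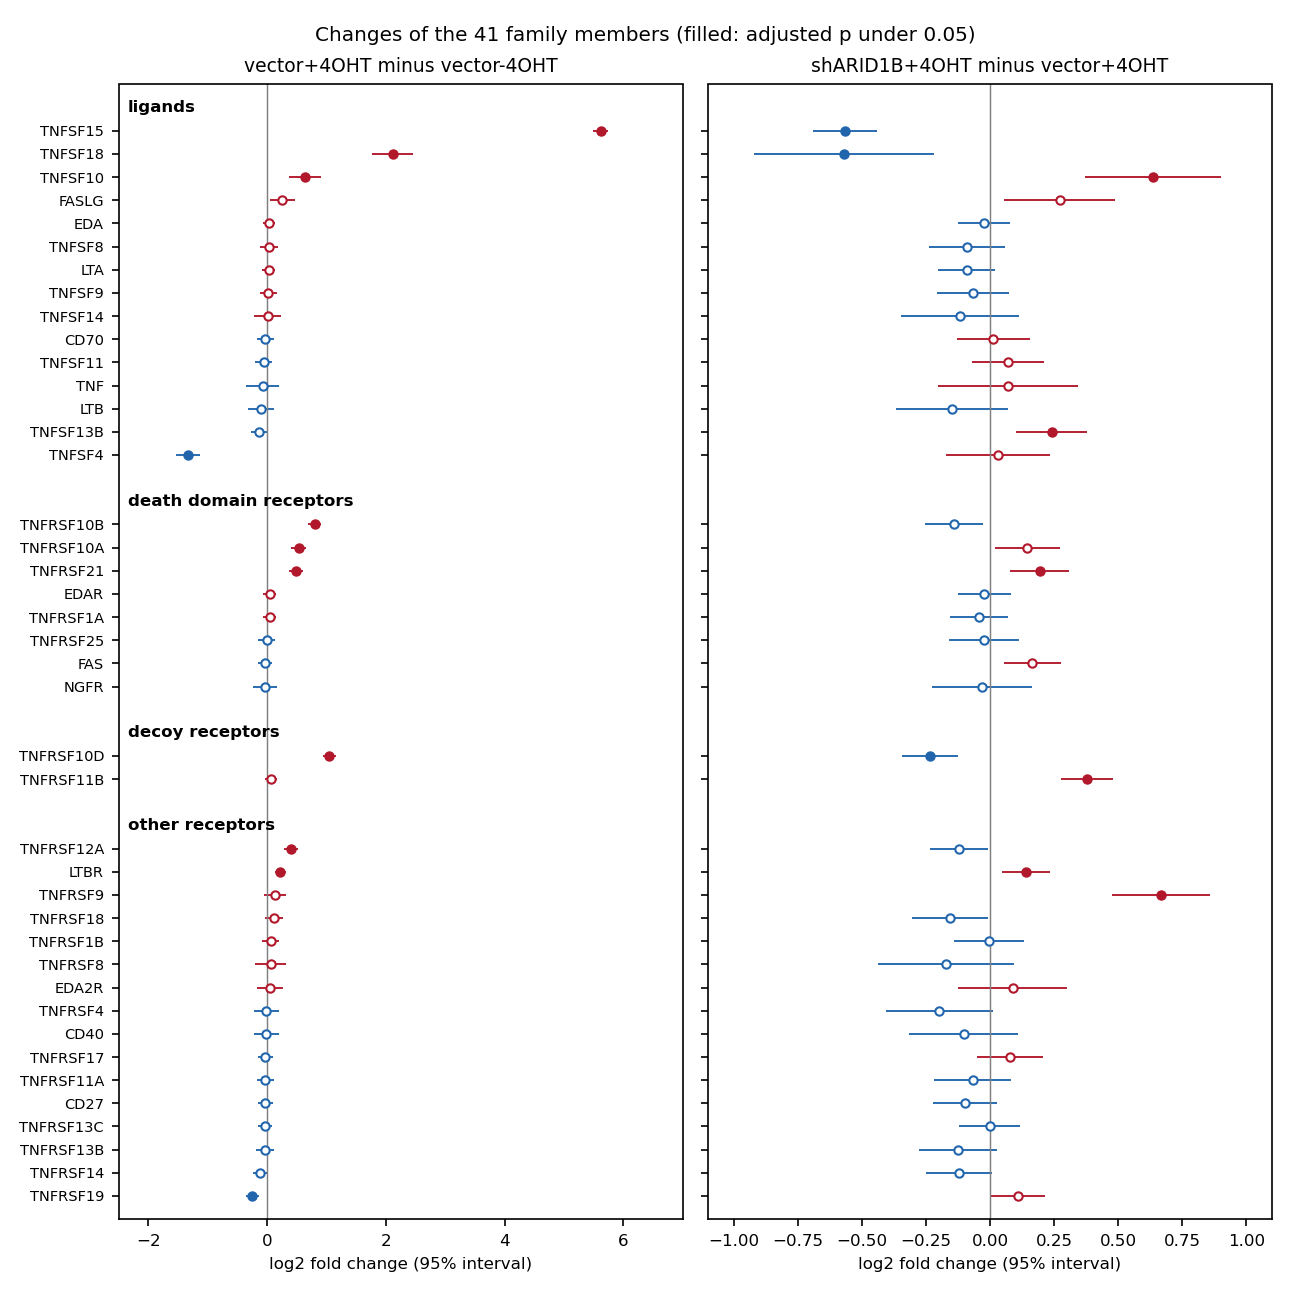
Log2 fold change of all 41 members by role in senescence (vector+4OHT minus vector-4OHT) and knockdown (shARID1B+4OHT minus vector+4OHT), with 95% intervals, red above and blue below zero, filled where called, and a separate horizontal scale in each panel. TNFSF15 stands far to the right in senescence at 5.62 and left of zero in knockdown at -0.57, while TNFSF4 lies at -1.33 in senescence and 0.03 in knockdown.

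The promoters of the 4 ligands called in senescence are shown because these ligands include the largest rise and the largest fall of the family. Each run covers 300 bases around the annotated start of the gene, from RefSeq on GRCh38.p14, all on the minus strand and written 5′ to 3′ along the gene. They lie at chr9:114792481-114792780 (TNFSF15), chr1:173050892-173051191 (TNFSF18), chr3:172523381-172523680 (TNFSF10) and chr1:173205483-173205782 (TNFSF4). Capitals mark matches to the AP-1 motif TGANTCA, the interferon response core GAAANNGAAA or the kappaB consensus, searched on both strands, or to the TATA box TATAAA on the given strand.
TNFSF15: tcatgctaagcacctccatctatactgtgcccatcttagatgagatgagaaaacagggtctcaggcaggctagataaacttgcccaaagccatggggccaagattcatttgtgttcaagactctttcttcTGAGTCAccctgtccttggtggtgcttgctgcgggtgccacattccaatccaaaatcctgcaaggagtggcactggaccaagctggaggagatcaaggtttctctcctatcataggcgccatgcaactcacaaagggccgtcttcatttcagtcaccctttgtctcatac
TNFSF18: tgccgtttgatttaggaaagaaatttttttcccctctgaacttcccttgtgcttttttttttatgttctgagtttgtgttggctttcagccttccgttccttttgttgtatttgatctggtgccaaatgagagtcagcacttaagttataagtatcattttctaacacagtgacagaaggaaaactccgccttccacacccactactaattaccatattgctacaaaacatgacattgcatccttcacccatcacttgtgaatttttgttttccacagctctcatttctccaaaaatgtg
TNFSF10: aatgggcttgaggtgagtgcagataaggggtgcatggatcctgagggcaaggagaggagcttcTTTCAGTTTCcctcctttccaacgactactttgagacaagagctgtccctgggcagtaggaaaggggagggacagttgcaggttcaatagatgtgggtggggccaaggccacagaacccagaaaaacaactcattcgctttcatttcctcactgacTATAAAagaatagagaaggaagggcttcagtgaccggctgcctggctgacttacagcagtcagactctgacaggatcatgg
TNFSF4: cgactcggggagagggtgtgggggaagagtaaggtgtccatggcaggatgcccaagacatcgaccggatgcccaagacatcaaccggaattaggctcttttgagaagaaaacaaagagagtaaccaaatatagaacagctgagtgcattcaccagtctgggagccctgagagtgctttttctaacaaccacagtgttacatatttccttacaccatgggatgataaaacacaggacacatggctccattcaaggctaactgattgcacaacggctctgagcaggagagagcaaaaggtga

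The TNFSF15 run held an AP-1 match at -120 to -114 from the start, and the TNFSF10 run an interferon response core at -187 to -178 and a TATA box at -31 to -26. TNFSF18 and TNFSF4 held no match to the 4 motifs in this window. Over all 35116 promoters of the same length, 7.71% held the AP-1 motif, 3.57% the interferon response core, 11.3% the kappaB consensus and 7.33% the TATA box. Of 36 promoters listed for 27 members, 9 held the AP-1 motif, 8 the interferon response core, 11 the kappaB consensus and 5 the TATA box. Windows of 1 member can overlap, so a match can be counted more than once. Counted by member, 7 of the 27 held the AP-1 motif, 6 the interferon response core, 9 the kappaB consensus and 5 the TATA box. The members with the interferon response core were FASLG, TNFRSF1B, TNFSF10, TNFSF13B, TNFSF14 and TNFSF9. A match is a description of letters and was not tied to any factor.

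TNFSF15 (TL1A), an endothelial and myeloid cytokine that co-stimulates T cells through TNFRSF25, had the largest change of the family. Its log2 levels were 11.27, 11.27 and 11.24 in shARID1B+4OHT, 11.77, 11.85 and 11.86 in vector+4OHT and 6.13, 6.30 and 6.18 in vector-4OHT cells. The 3 groups did not overlap, and the non-senescent level was below 6.75. In senescence TNFSF15 rose by 5.62 (95% interval 5.50 to 5.75, 49.2-fold, adjusted p = 1.19e-12). In knockdown it fell by 0.57 (-0.69 to -0.44, adjusted p = 9.6e-05). That is, it fell by 32.5% and was still 33.2-fold above non-senescent cells. Its receptor TNFRSF25 (DR3) averaged 8.13, 8.15 and 8.16 in shARID1B+4OHT, vector+4OHT and vector-4OHT cells, with a senescence change of -0.01 (-0.14 to 0.13, adjusted p = 0.944) and a knockdown change of -0.02 (adjusted p = 0.838). TNFSF8, the coding gene next to TNFSF15 on chromosome 9, had a senescence change of 0.03 (adjusted p = 0.806).

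TNFSF18 (GITRL), which co-stimulates T cells through TNFRSF18, followed the same order of groups. Its log2 levels were 6.34, 6.30 and 6.37 in shARID1B+4OHT, 6.77, 6.89 and 7.05 in vector+4OHT and 4.86, 5.16 and 4.36 in vector-4OHT cells. The groups did not overlap, yet only the senescent mean of 6.90 exceeded 6.75. It rose by 2.11 in senescence (1.76 to 2.46, adjusted p = 2.11e-06) and fell by 0.57 in knockdown (-0.92 to -0.22, adjusted p = 0.0343). The knockdown call was lost in 6 of the 9 fits that left out 1 array: without any 1 of the shARID1B+4OHT arrays (adjusted p 0.0827 to 0.109), without vector+4OHT replicate 2 (0.0878) or 3 (0.0976), and without vector-4OHT replicate 1 (0.0502). Over the 9 fits its adjusted p ranged over 0.00356 to 0.109. TNFRSF18 (GITR) averaged 7.86 in shARID1B+4OHT, 8.02 in vector+4OHT and 7.90 in vector-4OHT cells and was not called in senescence (0.12, -0.03 to 0.26, adjusted p = 0.239) or knockdown (-0.16, -0.30 to -0.01, adjusted p = 0.157).

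TNFSF4 (OX40L), a co-stimulator of T cells through TNFRSF4, moved the other way in senescence. It measured 8.57, 8.67 and 8.55 in shARID1B+4OHT, 8.39, 8.61 and 8.71 in vector+4OHT and 9.88, 10.05 and 9.76 in vector-4OHT cells. Both 4OHT groups lay below every non-senescent array and overlapped each other. TNFSF4 fell by 60.1% in senescence (log2 change -1.33, -1.53 to -1.12, adjusted p = 1.19e-06). Its knockdown change was 0.03 (-0.17 to 0.24, adjusted p = 0.856). TNFRSF4 (OX40) averaged 7.29, 7.49 and 7.50 in shARID1B+4OHT, vector+4OHT and vector-4OHT cells, with a senescence change of -0.01 (-0.22 to 0.19, adjusted p = 0.947). FASLG, TNFSF18 and TNFSF4 are consecutive coding genes on chromosome 1, and in senescence TNFSF18 rose, TNFSF4 fell and FASLG was not called.

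TNFSF10 (TRAIL), which triggers apoptosis through TNFRSF10A and TNFRSF10B, rose in both comparisons. It measured 7.85, 7.71 and 7.52 in shARID1B+4OHT, 6.88, 7.18 and 7.11 in vector+4OHT and 6.54, 6.17 and 6.55 in vector-4OHT cells. No group overlapped another, and the non-senescent mean of 6.42 was below 6.75. The senescence change was 0.64 (0.37 to 0.90, adjusted p = 0.00172) and the knockdown change 0.64 (0.37 to 0.90, adjusted p = 0.00489). Between shARID1B+4OHT and vector-4OHT cells the difference reached 1.27, or 2.42-fold (adjusted p = 1.23e-05).

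FASLG and TNFSF13B stayed below 6.75 on average in every group, so their changes are weakly grounded. FASLG, the ligand of FAS, measured 6.67, 6.78 and 6.50 in shARID1B+4OHT, 6.40, 6.37 and 6.37 in vector+4OHT and 6.14, 6.31 and 5.91 in vector-4OHT cells. It was called only in the third comparison, at 0.53 (0.31 to 0.75, adjusted p = 0.00158), with 0.26 in senescence (adjusted p = 0.0674) and 0.27 in knockdown (adjusted p = 0.0916). TNFSF13B (BAFF), a survival factor for B cells, measured 6.30, 6.45 and 6.20 in shARID1B+4OHT, 6.05, 6.13 and 6.06 in vector+4OHT and 6.20, 6.20 and 6.22 in vector-4OHT cells. It rose by 0.24 in knockdown (0.10 to 0.38, adjusted p = 0.0265), a call lost in 4 of the 9 fits that left out 1 array: without vector+4OHT replicate 1 (adjusted p = 0.0693) or 3 (0.0647) and without shARID1B+4OHT replicate 1 (0.0637) or 2 (0.0997). FASLG was called in senescence without vector-4OHT replicate 2 (adjusted p = 0.0164) and in knockdown without vector-4OHT replicate 3 (adjusted p = 0.0455). Other settings also moved its calls, in either direction: it was called in senescence with array medians subtracted (adjusted p = 0.032) and in knockdown with the 6 arrays alone (adjusted p = 0.0493), while its call in the third comparison was lost under the methods' t-test after Benjamini-Hochberg (adjusted p = 0.0712).

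**Figure D2:**
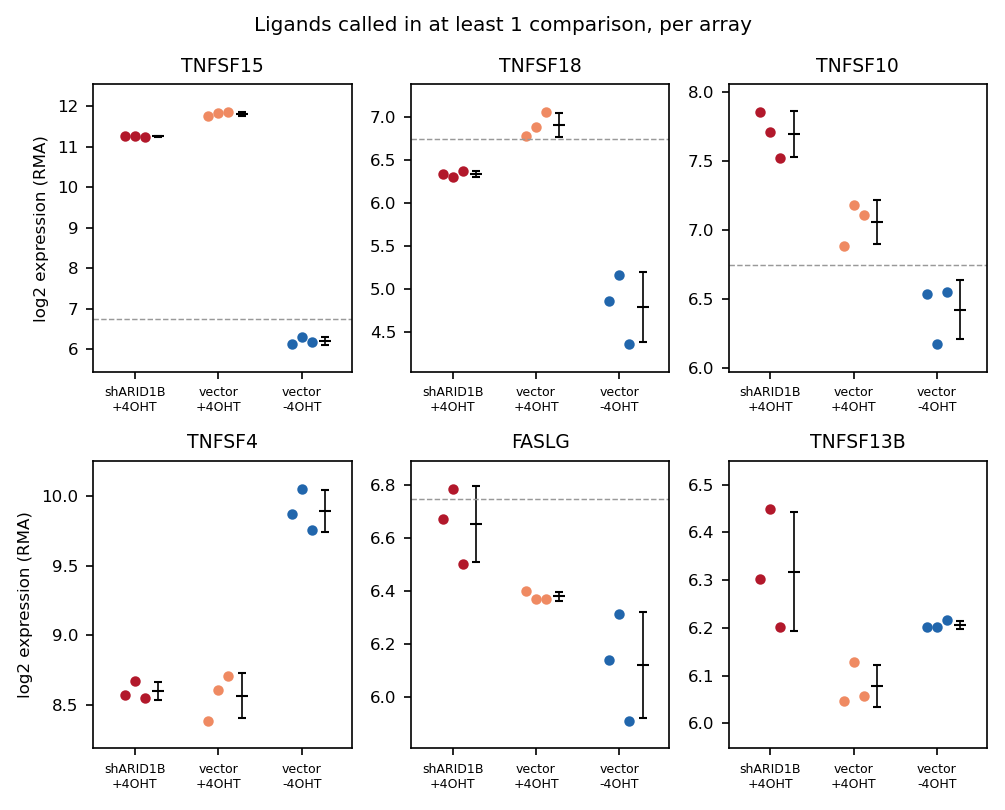
Log2 expression on each array of the 6 ligands called in at least 1 comparison, with shARID1B+4OHT, vector+4OHT and vector-4OHT cells from left to right, the mean ± SD in black (n = 3) and a dashed line at 6.75 where it falls in the panel. Each panel has its own vertical scale; TNFSF15 separates both 4OHT groups from non-senescent cells, and TNFSF10 steps up in both 4OHT groups.

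The death domain receptors of TRAIL rose in senescence together with their ligand, as did a decoy. TNFRSF10B (DR5) measured 11.72, 11.69 and 11.74 in shARID1B+4OHT, 11.77, 11.93 and 11.86 in vector+4OHT and 11.03, 11.07 and 11.06 in vector-4OHT cells. TNFRSF10A (DR4) measured 8.11, 8.20 and 8.15 in shARID1B+4OHT, 7.96, 7.96 and 8.10 in vector+4OHT and 7.54, 7.45 and 7.44 in vector-4OHT cells. For both, every array of either 4OHT group exceeded every non-senescent array. The rises in senescence were 0.80 for TNFRSF10B (0.69 to 0.91, adjusted p = 6.44e-07) and 0.53 for TNFRSF10A (0.41 to 0.66, adjusted p = 3.39e-05). In knockdown the differences were -0.14 for TNFRSF10B (-0.25 to -0.03, adjusted p = 0.0985) and 0.15 for TNFRSF10A (0.02 to 0.27, adjusted p = 0.125), and neither was called. Without vector+4OHT replicate 1, TNFRSF10B was called lower in knockdown (-0.18, adjusted p = 0.0357).

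TNFRSF10D, a TRAIL decoy with a truncated death domain, had the largest rise among the receptors and fell in knockdown. Its log2 levels were 12.05, 12.16 and 12.11 in shARID1B+4OHT, 12.38, 12.34 and 12.30 in vector+4OHT and 11.29, 11.32 and 11.28 in vector-4OHT cells, without overlap. In senescence it rose by 1.05 (0.94 to 1.15, 2.07-fold, adjusted p = 5.56e-08). In knockdown it fell by 0.23 (-0.34 to -0.13, adjusted p = 0.00815). The TNFRSF10 genes lie next to each other on chromosome 8 with TNFRSF10C between them, and are alike in sequence. Whether their probes share signal was not tested.

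TNFRSF11B (osteoprotegerin), a secreted decoy for TNFSF11 that also binds TRAIL, moved in knockdown. It measured 11.90, 11.88 and 11.84 in shARID1B+4OHT, 11.47, 11.51 and 11.50 in vector+4OHT and 11.41, 11.41 and 11.47 in vector-4OHT cells. All shARID1B+4OHT arrays lay above the rest. It rose by 0.38 in knockdown (0.28 to 0.48, 1.30-fold, adjusted p = 0.000338), with 0.07 in senescence (-0.03 to 0.17, adjusted p = 0.328). TNFSF11 (RANKL) itself was listed at 5.10, 5.03 and 5.08 on average in shARID1B+4OHT, vector+4OHT and vector-4OHT cells, below 6.75.

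TNFRSF21 (DR6), a death domain receptor, rose in each comparison. It measured 9.79, 9.70 and 9.80 in shARID1B+4OHT, 9.53, 9.62 and 9.55 in vector+4OHT and 9.04, 9.09 and 9.13 in vector-4OHT cells. The groups stood in steps without overlap, with 0.48 in senescence (0.37 to 0.60, adjusted p = 3.12e-05) and 0.19 in knockdown (0.08 to 0.31, adjusted p = 0.0285). The knockdown call was lost in 4 of the 9 fits that left out 1 array: without vector+4OHT replicate 1 (adjusted p = 0.0706) or 3 (0.0651) and without shARID1B+4OHT replicate 1 (0.0933) or 3 (0.11). It was also lost under the methods' t-test after Benjamini-Hochberg (adjusted p = 0.0794). FAS, the receptor of FASLG, averaged 10.03 in shARID1B+4OHT, 9.86 in vector+4OHT and 9.89 in vector-4OHT cells. Its senescence change was -0.03 (adjusted p = 0.706), and its knockdown change of 0.17 (0.05 to 0.28) narrowly missed the threshold (adjusted p = 0.0501), which it passed without vector+4OHT replicate 3 (adjusted p = 0.0339). Its change in the third comparison was 0.13 (adjusted p = 0.0709). TNFRSF1A, the main TNF receptor of fibroblasts, had a senescence change of 0.04 (-0.07 to 0.15, adjusted p = 0.624) and a knockdown change of -0.04 (adjusted p = 0.636).

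**Figure D3:**
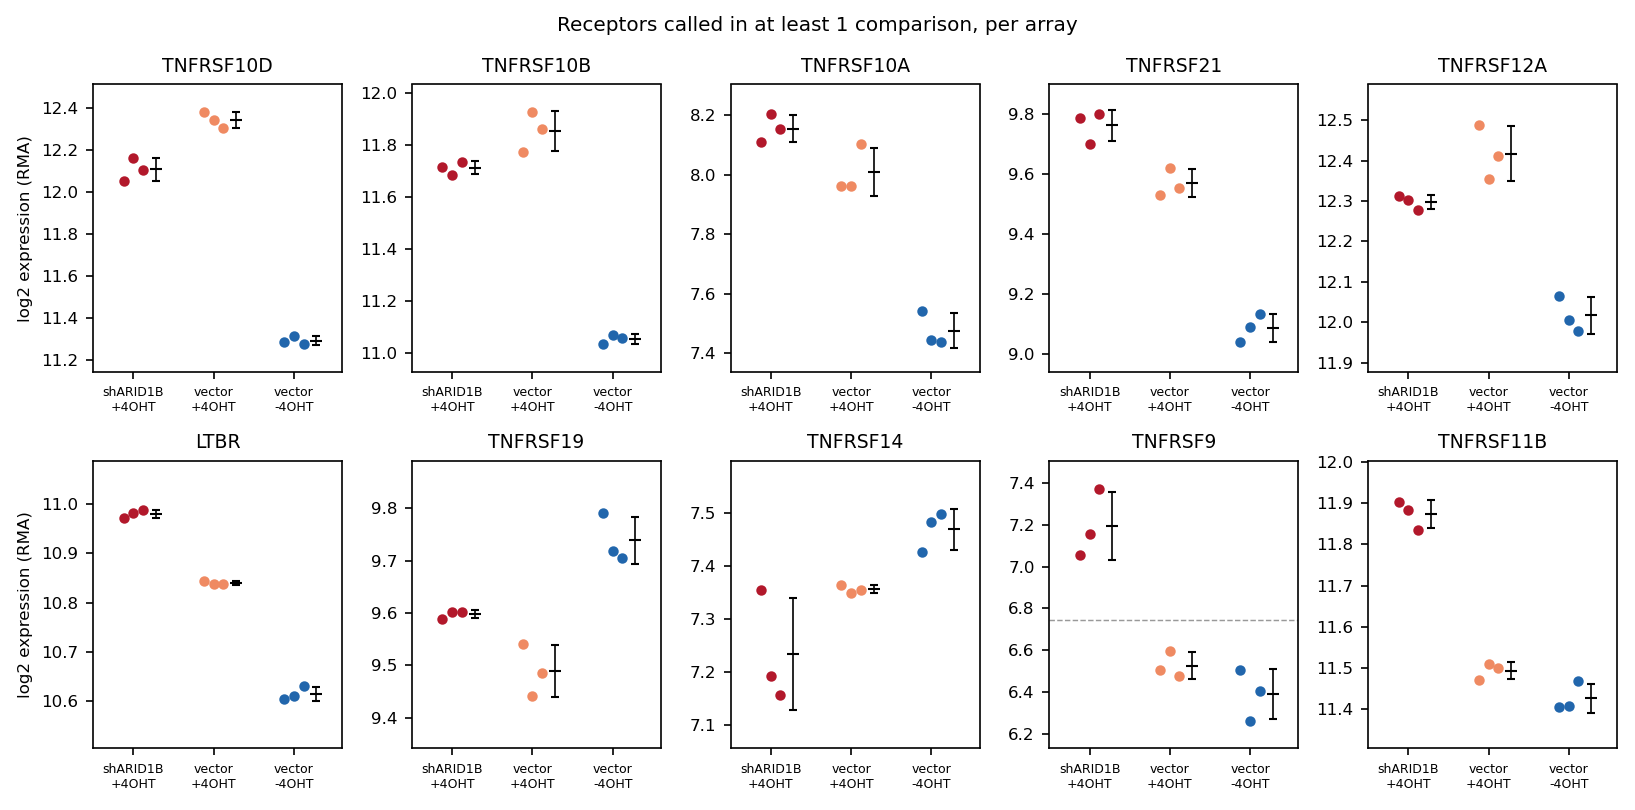
Log2 expression on each array of the receptors called in at least 1 comparison, with shARID1B+4OHT, vector+4OHT and vector-4OHT cells from left to right and the mean ± SD in black (n = 3), each panel on its own vertical scale. TNFRSF10D and TNFRSF10B separate the 4OHT groups from non-senescent cells, whereas TNFRSF11B and TNFRSF9 separate shARID1B+4OHT cells from the other groups.

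Among the other receptors, TNFRSF9 (CD137), a co-stimulatory receptor that binds TRAFs, rose in knockdown. It measured 7.06, 7.16 and 7.37 in shARID1B+4OHT, 6.51, 6.60 and 6.48 in vector+4OHT and 6.50, 6.26 and 6.41 in vector-4OHT cells. The shARID1B+4OHT arrays all lay above 6.75 and the other arrays all below it. TNFRSF9 rose by 0.67 in knockdown (0.48 to 0.86, 1.59-fold, adjusted p = 0.000499), while its senescence change was 0.14 (-0.06 to 0.33, adjusted p = 0.289). Its ligand TNFSF9 averaged 7.36, 7.43 and 7.40 in shARID1B+4OHT, vector+4OHT and vector-4OHT cells and was not called.

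LTBR, the receptor of lymphotoxin heterotrimers and TNFSF14 that activates the noncanonical NF-kappaB route, rose by small steps. It measured 10.97, 10.98 and 10.99 in shARID1B+4OHT, 10.84 on each vector+4OHT array, and 10.61, 10.61 and 10.63 in vector-4OHT cells. The senescence change was 0.22 (0.13 to 0.32, adjusted p = 0.00176). The knockdown change of 0.14 (0.05 to 0.23, adjusted p = 0.0482) was no longer called in any of the 9 fits that left out 1 array (adjusted p 0.0537 to 0.138). Its SD of 0.0042 within vector+4OHT cells was far under the median residual SD of 0.0843 over all genes.

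TNFRSF12A (Fn14), the receptor of TNFSF12, measured 12.31, 12.30 and 12.28 in shARID1B+4OHT, 12.49, 12.35 and 12.41 in vector+4OHT and 12.07, 12.01 and 11.98 in vector-4OHT cells. Both 4OHT groups exceeded every non-senescent array. It rose by 0.40 in senescence (0.29 to 0.51, adjusted p = 0.000117), with -0.12 in knockdown (-0.23 to -0.01, adjusted p = 0.157).

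TNFRSF19 (TROY), a TRAF-binding receptor, and TNFRSF14 (HVEM), which binds TNFSF14 and LTA, were each called lower in a comparison with non-senescent cells. TNFRSF19 measured 9.59, 9.60 and 9.60 in shARID1B+4OHT, 9.54, 9.44 and 9.49 in vector+4OHT and 9.79, 9.72 and 9.71 in vector-4OHT cells. It fell by 0.25 in senescence (-0.36 to -0.14, adjusted p = 0.00206), and its knockdown change was 0.11 (adjusted p = 0.172). All 6 arrays with 4OHT lay under the 3 without it. TNFRSF14 measured 7.36, 7.19 and 7.16 in shARID1B+4OHT, 7.36, 7.35 and 7.36 in vector+4OHT and 7.43, 7.48 and 7.50 in vector-4OHT cells. It was called only in the third comparison, at -0.24 (-0.36 to -0.11, adjusted p = 0.00972). Under the methods' t-test after Benjamini-Hochberg that call was lost (adjusted p = 0.0775), and TNFRSF14 was called lower in senescence instead (-0.11, adjusted p = 0.0401). In the third comparison TNFRSF19 was called as well (-0.14, adjusted p = 0.048). That call was lost in 8 of the 9 fits that left out 1 array, all but the fit without vector+4OHT replicate 1 (adjusted p over the 9 fits 0.0328 to 0.138). It was also lost with array medians subtracted, where the change was -0.08 (adjusted p = 0.313).

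The 25 members called in no comparison comprised 9 ligands and 16 receptors. Their senescence changes ran between -0.10 and 0.12, their knockdown changes between -0.20 and 0.17 and their changes in the third comparison between -0.25 and 0.14. TNF, the founding ligand, was among them: it measured 6.30, 5.75 and 5.88 in shARID1B+4OHT, 5.95, 5.89 and 5.87 in vector+4OHT and 5.85, 6.14 and 5.95 in vector-4OHT cells. The groups overlapped, all arrays were below 6.75, and the senescence change of -0.07 had an interval of -0.35 to 0.20 (adjusted p = 0.725). The 3 probe sets of TNF held the same values on every array.

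Over the whole family, 13 members were at or below 6.75 in all groups (8 ligands and 5 receptors), 23 were above it in all groups and 5 were mixed. Uncalled members that were dim throughout included LTA, TNFSF8, TNFSF11, CD70 and EDA among the ligands, and CD40, CD27, EDAR, TNFRSF11A and TNFRSF17 among the receptors. A change in such genes may not have been detectable. Brighter uncalled members included TNFRSF1A, EDA2R (a receptor of ectodysplasin A2), FAS, TNFRSF1B, TNFRSF13B, NGFR and LTB. A level above 6.75 does not by itself show that these were expressed. LTB, TNFRSF13B and TNFRSF4 were called lower in the third comparison in some alternative runs, given below. Of the 4 probe sets of LTB, 3 held the same values, and the other lay below 6.75 on every array (6.15 to 6.60). For the 30 members not called in senescence the 95% intervals spanned -0.347 to 0.475, and for the 32 not called in knockdown -0.437 to 0.488, so changes larger than these lie outside the intervals.

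The pathway lists below were chosen with earlier results of these data known, so their shares beside those of all genes are descriptive. Downstream of the receptors, adaptors and ubiquitin enzymes were followed through a list of 27 genes, of which 23 were measured. In senescence 10 rose and 3 fell, 56.5% of the list against 32.6% of all genes, with a median of 0.095 against -0.012. In knockdown 1 rose and 2 fell, 13% against 15.7% of all genes and thus near the background, with a median of 0.033 against -0.017. TNFAIP3 (A20), a ubiquitin-editing inhibitor of TNF signalling, rose by 1.50 in senescence (adjusted p = 9.68e-08) and by 0.38 in knockdown (adjusted p = 0.00566). BIRC2 (cIAP1), a ubiquitin ligase of receptor complexes, rose by 0.71 (adjusted p = 2.29e-05) and TRAF3 by 0.58 (adjusted p = 4.8e-05) in senescence. MAP3K14 (NIK), the kinase of the noncanonical NF-kappaB route that TRAF3 and BIRC2 hold in check, fell by 0.71 (adjusted p = 3.43e-05). Its means of 6.69 in shARID1B+4OHT and 6.54 in vector+4OHT cells were below 6.75, so the size of this fall is uncertain. TRAF4 rose by 0.34 (adjusted p = 0.00024) in senescence but in knockdown fell by 0.19 (adjusted p = 0.0195). FADD rose by 0.24 (adjusted p = 0.00325) in senescence and fell by 0.18 in knockdown (adjusted p = 0.0326). In the third comparison FADD was not called (0.06, adjusted p = 0.423).

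Of 9 measured genes of the death machinery (11 listed), 4 rose and 1 fell in senescence (55.6%, against 32.6% of all genes) and 1 rose in knockdown (11.1%, against 15.7% of all genes). The medians were 0.051 in senescence and 0.048 in knockdown, against -0.012 and -0.017 over all genes. MLKL, the executioner of necroptosis, rose by 0.92 (adjusted p = 5.64e-07) and the pro-apoptotic BID by 0.59 (adjusted p = 3.44e-06) in senescence. The inhibitors of caspase activation CFLAR (0.28, adjusted p = 0.00393) and XIAP (0.39, adjusted p = 0.00453) also rose, while CASP6 fell by 0.74 (adjusted p = 6.6e-05). Risers that favour cell death and risers that oppose it stood side by side in this list. In knockdown DIABLO, an antagonist of XIAP, rose by 0.20 (adjusted p = 0.0478). This call lay just under the threshold, and the list genes were not followed in the fits that left out 1 array.

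Of 5 genes that govern ligand release, 1 rose, 1 fell and 3 were not called in senescence (40% called, against 32.6% of all genes), and 2 rose, 1 fell and 2 were not called in knockdown (60%, against 15.7% of all genes). The medians were -0.042 in senescence and -0.093 in knockdown, against -0.012 and -0.017 over all genes. RHBDF1 (iRhom1), a partner of the TNF-cleaving protease ADAM17, rose by 0.66 (adjusted p = 1.07e-05) in senescence but in knockdown fell by 0.56 (adjusted p = 0.000157). ADAM10, another sheddase, fell by 0.38 (adjusted p = 0.000128) in senescence but in knockdown rose by 0.29 (adjusted p = 0.00277). TIMP3, an inhibitor of both proteases, was not called in senescence (-0.18, adjusted p = 0.054) and rose by 0.42 in knockdown (adjusted p = 0.00118). ADAM17 itself was not called in either, at -0.04 in senescence (adjusted p = 0.766) and -0.16 in knockdown (adjusted p = 0.224), nor was its partner RHBDF2, at 0.10 (adjusted p = 0.265) and -0.09 (adjusted p = 0.357).

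Genes known for induction by TNF, most of them NF-kappaB targets that other signals also induce, rose in senescence in 16 of 19 measured cases and fell in 1 (89.5% called, against 32.6% of all genes), with a median of 0.798 against -0.012 over all genes. In knockdown 7 rose and 4 fell (57.9%, against 15.7% of all genes), with a median of 0.040 against -0.017. As the list was chosen with earlier results of these data known, neither share is an independent test. TNFAIP3 and TRAF1 stand in this list and among the adaptors. PTGS2, the inducible cyclooxygenase, rose by 5.49 in senescence (adjusted p = 2.89e-11), the chemokine CCL20 by 4.25 (adjusted p = 3.83e-10) and the cytokine IL6 by 3.27 (adjusted p = 1.69e-11). The vector-4OHT means of PTGS2 (6.02) and CCL20 (5.46) were below 6.75, so the sizes of their rises are uncertain. IL6 rose by a further 0.71 in knockdown (adjusted p = 1e-05), and the adhesion molecule VCAM1 rose by 1.28 there (adjusted p = 0.000144). TNFAIP6, a secreted hyaluronan-binding protein, rose by 2.01 (adjusted p = 6.34e-09) in senescence but in knockdown fell by 0.74 (adjusted p = 6.7e-05). ICAM1 rose by 2.44 in senescence (adjusted p = 9.17e-11) but in knockdown fell by 0.24 (adjusted p = 0.0086).

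**Figure D4:**
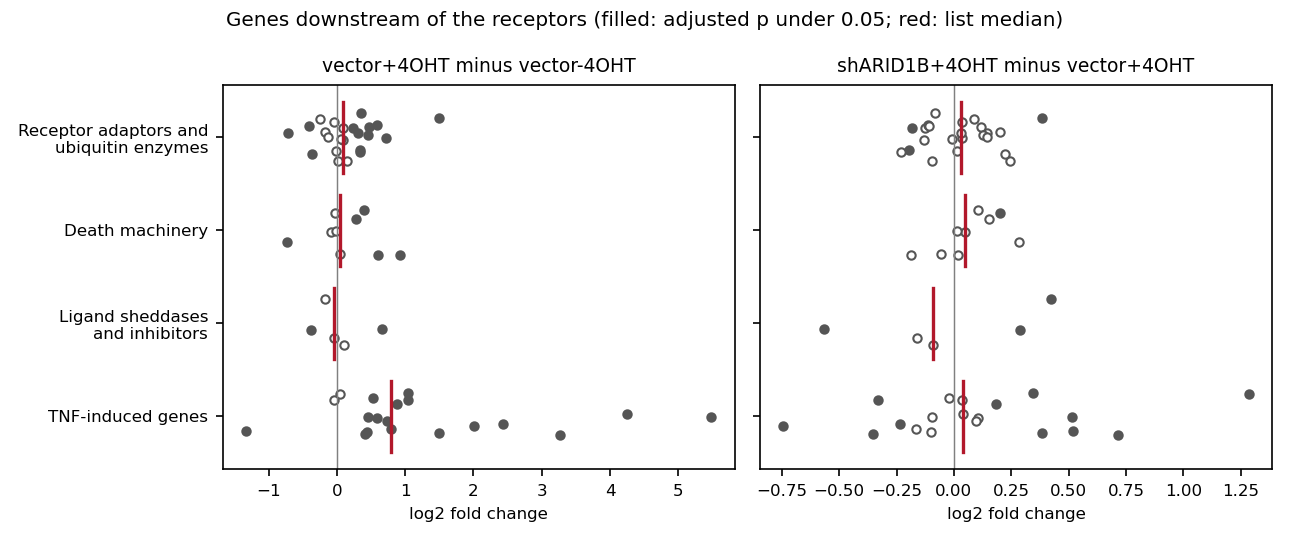
Log2 fold changes of the genes in 4 lists of TNF pathway genes in senescence (vector+4OHT minus vector-4OHT) and knockdown (shARID1B+4OHT minus vector+4OHT), 1 point per gene, filled where called, with a red line at the list median and a separate horizontal scale in each panel. The TNF-induced genes reach up to 5.49 in senescence (PTGS2, whose vector-4OHT mean was below 6.75). In knockdown, points of every list lie on both sides of zero.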

How the data were processed

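Total RNA was labelled for Affymetrix whole-transcript arrays, per the labels, whose extraction text names an Illumina stranded mRNA kit instead. The authors deposited log2 values, 1 for each probe set on each array. RMA, oligo and limma appear in the submitters' processing notes, with versions and genome build not given in the sources used here. Background correction and normalisation could not be repeated from these values, and no slide or scan time was given. Of 33297 probe sets, 19460 carried 1 symbol, 1754 several and 12083 none. The probe set with the highest mean was kept for each of 18417 genes. The 41 members came from 48 probe sets, all matched to RefSeq symbols by Entrez number. Array medians ran over 6.70 to 6.79. With 3 arrays a group, precision is limited by their number.

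The 9 arrays were fitted by group with limma 3.58.1 (lmFit, eBayes) in R 4.3.3, 2-sided, with Benjamini-Hochberg adjustment over all genes within each comparison. An exact permutation test of 3 against 3 cannot give a p below 0.1. The fit was tested on simulated data. Groups came from the sample titles. Every member could be named, with values per array for those called. Of each pathway list, up to 5 genes with the smallest p in senescence and up to 3 in knockdown were named. The family rule and the lists were chosen with earlier results of these data known, and the rule then took members by symbol alone. RIPK1, TRAF2, BIRC3 and TAB1 of the adaptor list were not analysed here. Alternatives were a replicate block, a fit to the 6 arrays of a comparison alone, removal of dim genes, averaging over probe sets of a gene, testing every probe set, array medians subtracted, an intensity trend, the methods' t-test and leaving out each array.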

Additional observations from a re-analysis of the deposited data

How the results depend on the processing

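No member changed direction past the threshold in any alternative run. In senescence the count of called members stayed at 11 or 12 under every adjusted alternative and under each left-out array (11 to 12), and the methods' t-test at an unadjusted p under 0.05 gave 14. The members behind a count can differ: the methods' t-test after Benjamini-Hochberg gave 12 in senescence, without TNFSF10 and with TNFRSF14 (adjusted p = 0.0401) and TNFSF13B (adjusted p = 0.0406) as lower. In knockdown the count was 9, against 14 by the methods' t-test at an unadjusted p under 0.05, 6 by that test after Benjamini-Hochberg, 11 with an intensity trend and 5 to 9 with an array left out, the lowest without shARID1B+4OHT replicate 1. In the third comparison the count was 15, with 14 to 18 when an array was left out. The knockdown calls that held in every adjusted alternative were TNFSF15, TNFRSF10D, TNFRSF11B and TNFRSF9. TNFSF10 lost its calls only under the methods' t-test after Benjamini-Hochberg (adjusted p = 0.0637 in senescence and 0.0772 in knockdown, against ranges of 0.000859 to 0.0637 and 0.00242 to 0.0772 over its alternatives). The knockdown calls of LTBR (adjusted p = 0.06) and TNFSF13B (0.062) were lost with the 6 arrays alone, that of LTBR also with array medians subtracted (0.0576; range over its alternatives 0.00491 to 0.138) and that of TNFSF13B under the methods' t-test after Benjamini-Hochberg (0.169; range 0.0163 to 0.169). FAS gained a knockdown call with dim genes left out (adjusted p = 0.03, range 0.0293 to 0.147) and with an intensity trend (0.0293), and a call in the third comparison with dim genes left out (0.0472), array medians subtracted (0.0284) and an intensity trend (0.0476). In the third comparison LTB (adjusted p = 0.0365), TNFRSF13B (0.0238) and TNFRSF4 (0.0313) gained calls as lower with the 6 arrays alone. Each also gained one without vector+4OHT replicate 1 (0.0321, 0.0231 and 0.0225), and LTB without vector+4OHT replicate 3 (0.0463). TNFRSF13B gained one under the methods' t-test after Benjamini-Hochberg as well (0.0307). With a replicate block, 12 members were called in senescence, 8 in knockdown and 14 in the third comparison. The block added FASLG in senescence (adjusted p = 0.0267) and knockdown (0.0431), and took LTBR (0.108) and TNFRSF21 (0.0589) from knockdown and TNFRSF19 (0.0795) from the third comparison. Deviations of same-numbered arrays correlated at -0.264 to 0.322 over 9 pairs, with 1 of 9 over 0.1. Those of differently numbered arrays correlated at -0.331 to 0.337 over 18 pairs, with 7 over 0.1. Between vector+4OHT and shARID1B+4OHT cells the same-numbered pairs gave 0.322, 0.079 and 0.071, and the others -0.321 to 0.267. The numbers were not taken to pair the arrays, and 3 arrays a group cannot settle whether they do. Array signal limits the 13 members that were dim in all groups.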
